A study of Caenorhabditis elegans with 2 samples.

Results

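The regions described are divergent promoters on the autosomes of Caenorhabditis elegans that carried a peak of the tagged C34F6.9 product. A peak was included when its summit, the highest point of the peak, lay off the X chromosome and within 500 bp of annotated 5′ ends of protein-coding transcripts on both strands. That rule kept 624 of the 5692 peaks in the authors' optimal list, or 13.2% of the 4715 autosomal peaks. The peaks came from chromatin immunoprecipitation with sequencing (ChIP-seq), which recovers DNA fragments held by a protein and maps them to the genome. The material was whole animals at larval stage L2, of both sexes pooled, from strain OP324. This strain is mutant for unc-119 (allele ed3, chromosome III) and carries the insertion wgIs324, which holds C34F6.9 fused to the fluorescent tag eGFP. Each library therefore mixes every cell type of the larva, and 1 strain with 1 insertion stands for the protein. All samples form 1 group with 2 biological replicates, so the data show where the fusion gave peaks and hold no comparison between conditions. The peak lists hold no read counts, so the depth of the libraries is unknown. All positions are in ce11.

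Genes of this compact genome often lie head to head, and the stretch between their 5′ ends then serves as promoter for both. In animals such shared promoters are often found at genes that every cell uses. Many messages of the worm are trans-spliced: a short spliced leader replaces the original 5′ part of the transcript, called the outron. The annotated 5′ end of such a gene is then a splice acceptor, and transcription starts at an unannotated place upstream of it. The cellular role of C34F6.9 was not used to read these data.

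The sequences show what a divergent promoter with a peak looks like beside one without a deposited region. Each runs from one annotated 5′ end to the other, on the plus strand of ce11, in the RefSeq copy of the assembly. The gene on the minus strand reads leftwards from the start of the line, and the gene on the plus strand reads rightwards from its end. Capitals mark bases covered by any of 10 G+C-rich 6-mers, on either strand, that were chosen on other promoter peaks and are spelled out further on. The first 3 are among the 4 highest-signal members of the 118 on chromosomes II to V with a gap of 60 to 300 bp, the summit inside it and no annotated exon in it.
cdk-5/kel-3: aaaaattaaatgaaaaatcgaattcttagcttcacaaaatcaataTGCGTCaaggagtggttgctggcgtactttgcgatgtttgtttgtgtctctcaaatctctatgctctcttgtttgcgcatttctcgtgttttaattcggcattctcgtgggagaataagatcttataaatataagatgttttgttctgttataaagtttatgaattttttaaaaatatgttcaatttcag
ctf-4/eef-1G: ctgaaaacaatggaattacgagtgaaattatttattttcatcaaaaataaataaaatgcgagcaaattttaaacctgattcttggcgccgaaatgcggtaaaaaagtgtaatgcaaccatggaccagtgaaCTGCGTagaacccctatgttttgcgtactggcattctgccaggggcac
T26A8.4/pdtf-1: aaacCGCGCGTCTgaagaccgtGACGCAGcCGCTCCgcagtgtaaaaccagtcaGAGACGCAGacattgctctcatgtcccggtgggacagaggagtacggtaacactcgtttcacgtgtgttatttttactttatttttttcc
The next pair are the lowest-signal members under the same limits.
dars-1/ctr-9: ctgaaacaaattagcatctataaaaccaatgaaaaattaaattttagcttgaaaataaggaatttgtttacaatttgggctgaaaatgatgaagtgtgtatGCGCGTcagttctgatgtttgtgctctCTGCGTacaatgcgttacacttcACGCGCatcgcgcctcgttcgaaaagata
mpst-1/D2023.6: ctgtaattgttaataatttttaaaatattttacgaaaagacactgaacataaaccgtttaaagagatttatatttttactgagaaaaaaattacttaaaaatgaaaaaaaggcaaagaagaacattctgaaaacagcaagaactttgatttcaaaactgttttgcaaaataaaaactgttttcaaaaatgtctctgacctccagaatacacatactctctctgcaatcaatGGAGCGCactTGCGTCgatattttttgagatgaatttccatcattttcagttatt
The last pair are head-to-head genes with no region in the pooled list near either end, chosen for a gap close to the 232.5 bp median of those 118 members.
rbmx-2/C30B5.2: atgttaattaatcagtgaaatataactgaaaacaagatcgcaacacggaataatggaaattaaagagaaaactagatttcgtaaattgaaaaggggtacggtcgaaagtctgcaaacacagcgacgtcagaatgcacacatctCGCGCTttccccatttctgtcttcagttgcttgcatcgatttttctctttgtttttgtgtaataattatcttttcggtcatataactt
cest-12/lonp-2: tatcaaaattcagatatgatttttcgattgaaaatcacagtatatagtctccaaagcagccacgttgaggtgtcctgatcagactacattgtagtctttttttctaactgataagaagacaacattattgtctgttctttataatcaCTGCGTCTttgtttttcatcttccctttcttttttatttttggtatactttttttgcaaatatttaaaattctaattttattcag
The cdk-5/kel-3 stretch (chrIII:13466343-13466577) has its summit on base 76, and the ctf-4/eef-1G stretch (chrV:10965540-10965718) on base 161 of 179. The T26A8.4/pdtf-1 stretch (chrIV:8432894-8433037), with the summit on base 88 of 144, carries 31 capital bases, the most of the 7. The dars-1/ctr-9 stretch (chrIII:9491216-9491395), between an aspartyl-tRNA synthetase gene and a gene of the Paf1 transcription elongation complex, carries 18 although its signal ranked 5457 of 5692. The mpst-1/D2023.6 stretch (chrV:11827068-11827353) carries 13. The stretches with no region, rbmx-2/C30B5.2 (chrII:6196949-6197179) and cest-12/lonp-2 (chrIII:12107542-12107773), carry 6 and 8. Capital letters thus occurred in all 7 stretches, and in these examples their number did not follow the order of the signal. Of the lines, 2 (ctf-4/eef-1G and dars-1/ctr-9) open with ctgaaa, which reads tttcag on the minus strand, and 1 (cdk-5/kel-3) closes with tttcag, the bases of a worm splice acceptor directly before an annotated 5′ end.

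The name divergent held for most members. In 561 of 624 (89.9%, 95% Wilson interval 87.3 to 92.0) the summit lay between the nearest opposite 5′ ends with the genes pointing away from each other. The share was 89.7% among the 620 such peaks of replicate 1 alone and 89.2% among the 619 of replicate 2 alone. In 53 members the genes pointed apart but the summit lay outside the gap, and in 10 the nearest 5′ ends faced each other. Over all members the gap between these 5′ ends had a median of 376.5 bp (quartiles 253 and 522.5), and ran from -380 bp, where the genes overlap, to 947 bp. The nearer 5′ end was a median of 123.5 bp from the summit (quartiles 56 and 184) and the farther one 260 bp (quartiles 179 and 356). At the 1889 autosomal promoter peaks with a coding 5′ end on a single strand within 500 bp, called one-direction peaks below, the nearest end was 174 bp away. A divergent summit thus sat closer to its nearer gene than a one-direction summit did, and farther from its other gene. Having an end on either side by itself makes the nearer one closer.

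**Figure D1:**
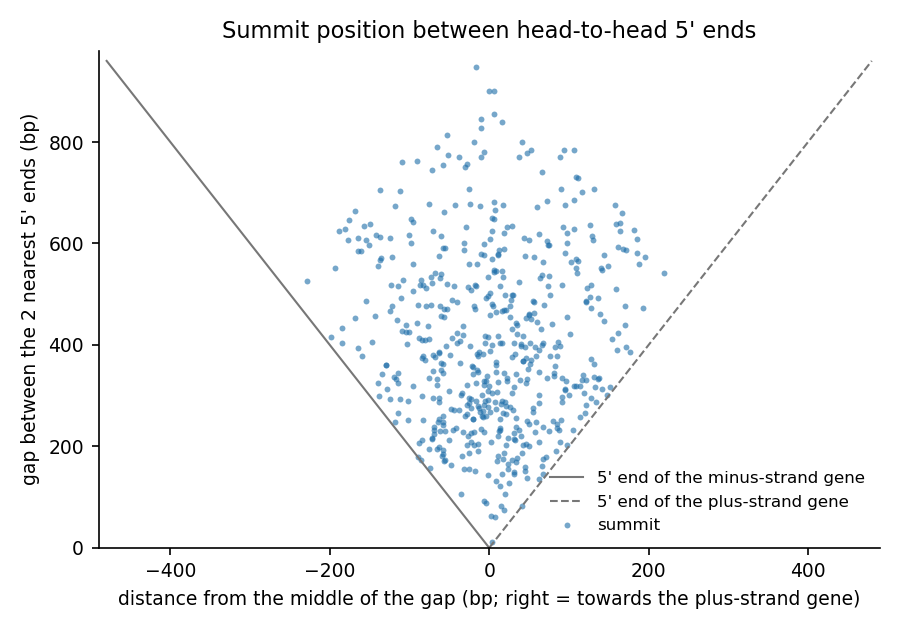
Each point is the summit of 1 of the 561 members that lay between head-to-head 5′ ends, placed by its distance in bp from the middle of the gap (x axis) and by the gap in bp (y axis). Grey lines are the annotated 5′ ends of the minus-strand gene (solid) and the plus-strand gene (dashed). Summits gather towards the middle at wide gaps, where the limit of 500 bp to either end leaves less room.

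Within the gap the summit kept no fixed distance from either gene. In gaps of 1 to 200 bp (54 members) the nearer end was a median of 35.5 bp away and the farther 113.5 bp. In gaps of 301 to 400 bp (117 members) the medians were 118 and 243 bp, and in gaps of 601 to 1000 bp (92 members) they were 269 and 436 bp. The summit lay in the middle 1/3 of the gap in 308 of 561 members (54.9%), from 35.2% in the narrowest class to 71.7% in the widest. The limit of 500 bp forces summits in wide gaps towards the middle, so the widest class cannot be read as a preference. The minus-strand gene was the nearer in 266 members and the plus-strand gene in 294, with 1 tie.

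Divergent promoters stood high in the list. The signal of a peak is the authors' own value, relative to a control library and on a scale of its own in each list, so only ranks within a list are compared. The members' signal ran from 57.4 to 1045.46 with a median of 173.0 in the optimal list. In replicate 1 the matched regions ran from 25.5 to 592.2 (median 108) and in replicate 2 from 10.2 to 457.1 (median 66.3). The median member stood at percentile 71.7 of the optimal list. It was 57.1 for one-direction peaks and 40.4 for autosomal peaks with no coding 5′ end within 500 bp. In replicate 1 alone these percentiles were 73.4, 57.3 and 39.4, and in replicate 2 alone 68.4, 56.1 and 42.7. Of the members, 465 were among the 2846 highest peaks of the list. Divergent peaks made up 24.8% of autosomal promoter peaks (Wilson interval 23.2 to 26.6; replicates 1 and 2 alone, 24.5% and 25.3%). When the list was divided into 10 equal groups by signal, it was 37.1% in the highest and 11.7% in the lowest. It fell from 38.1% to 8.97% in replicate 1 and from 33.8% to 16.7% in replicate 2. Peaks of 1 list share their libraries and are not replicates, so no test was made between classes of peaks, here or below, and intervals cover counting error only.

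**Figure D2:**
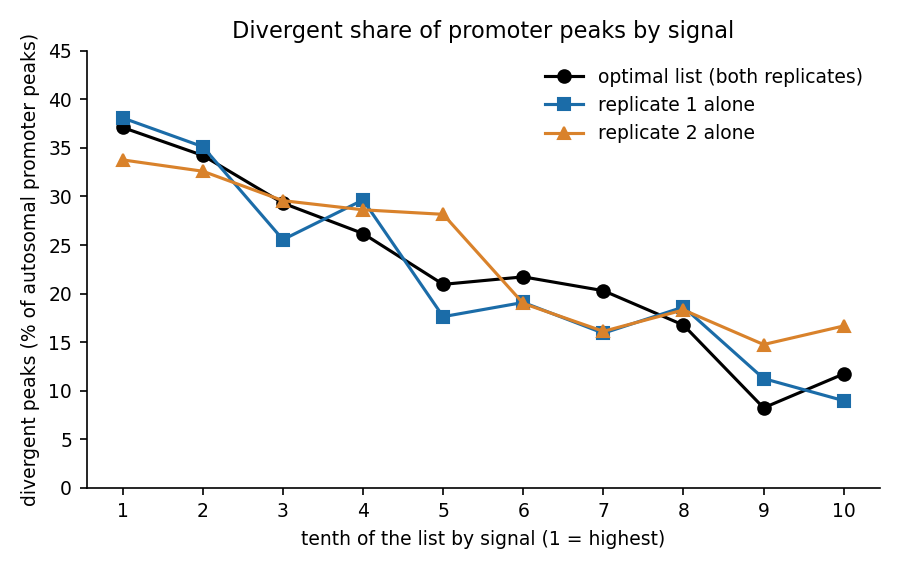
Divergent peaks as a percentage of autosomal promoter peaks (y axis) in 10 equal groups of peaks ordered by the authors' signal (x axis, 1 is the highest), for the optimal list and for the 5692 highest peaks of each replicate. All 3 lines are higher at the left, at 33.8 to 38.1%, than at the right, at 8.97 to 16.7%.

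Both replicates placed peaks at most of these promoters. The optimal list was made from both replicates, which favours a match, so the shares are a description. A summit within 100 bp among the 5692 highest peaks of both replicates was found for 557 members (89.3%, Wilson interval 86.6 to 91.5), against 75.4% of all optimal peaks and 79.4% of one-direction peaks. The excess went with signal. In the highest of 4 equal groups of the list the share was 99.6% for divergent and 99.3% for one-direction peaks, in the next 98.9% and 98.5%, in the next 79.1% and 79.9%, and in the lowest 16.3% (8 of 49) and 23.3%. In the 3 highest groups the classes were thus within 1 percentage point of each other. Of the remaining members, 41 were matched in replicate 1 alone, 22 in replicate 2 alone and 4 in neither. In the full lists, which include background regions, 602 members (96.5%) had a match in both. Their summits lay a median of 17 bp apart between replicates (22 bp for one-direction peaks). Across these 602 regions the 2 replicates' signals correlated with a rho of 0.876 (Spearman) and, as log2 values, with an r of 0.869 (Pearson), as a description, since the regions were chosen from the pool of both.

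Each of the 4 highest members joined a ribosomal protein or translation factor gene to a gene of another kind. The peak between rpl-20 (WBGene00004432), a gene of the large ribosomal subunit, and Y17G9B.5 (WBGene00021202) at chrIV:4749874-4750247 had the highest signal of all members, 1045.46, and ranked 4 in the optimal list. Its signal was 592.2 in replicate 1, where it also ranked 4, and 457.1 in replicate 2, where it ranked 2. Its summit at 4750065 lay 287 bp from rpl-20 and 175 bp from Y17G9B.5. Next came drr-2/set-16 (WBGene00011730 and WBGene00011729), between a gene for an eIF4H-like translation factor and one for an H3K4 methyltransferase of the MLL family. That peak had a signal of 789.93 (rank 16), 477.4 in replicate 1 (rank 12) and 312.6 in replicate 2 (rank 26). The peak rpl-15/K11H12.8 had 778.1 (rank 19), 419.5 (rank 28) and 355.1 (rank 14). The peak between eef-1A.1, for translation elongation factor 1 alpha, and rfc-4, for a subunit of the DNA clamp loader, had 772.5 (rank 20), 478.8 (rank 11) and 291.7 (rank 39). Each of these 4 stood among the 39 highest peaks of both replicates.

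The other 8 of the 12 highest peaks ranked from 26 to 43 in the optimal list, from 17 to 39 in replicate 1 and from 29 to 75 in replicate 2. They included rps-19/hsr-9, ska-3/rps-12 and rps-20/ekl-4, each with a gene of the small ribosomal subunit. The peak hsp-110/rpn-3 lay between a gene for an Hsp110 chaperone and one for a subunit of the proteasome lid. In rheb-1/spk-1 a gene for the GTPase that activates the growth kinase TOR faces away from one for a kinase of SR splicing proteins. In Y71H2AM.20/cox-6B the partner encodes a subunit of cytochrome c oxidase, and in mig-5/cct-1 a Dishevelled protein of Wnt signalling is paired with a subunit of the cytosolic chaperonin. The remaining pair was gpap-1/scpr-1. All 12 had their summit between the genes. Of the 100 highest peaks of the whole list, 23 were divergent and 36 one-direction. Over all 5692 peaks these counts were 624 and 1889.

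Peaks at head-to-head genes were common but far from general. The annotation holds 1771 autosomal pairs of coding genes with head-to-head 5′ ends at most 1000 bp apart and no other coding 5′ end between, with a median gap of 471 bp. A divergent peak lay at 609 of them (34.4%, Wilson interval 32.2 to 36.6), at 606 with the peaks of replicate 1 alone and at 602 with those of replicate 2. At 789 pairs the pooled list had no region near either end. The share was 28.8% for gaps of 1 to 100 bp, 34.8% for 101 to 200 bp, 48.5% for 201 to 300 bp, 55.9% for 301 to 400 bp and 52.8% for 401 to 500 bp. It was 38.2% for 501 to 600 bp, 23.2% for 601 to 800 bp and 3.32% for 801 to 1000 bp. The drop at wide gaps is at least in part set by the 500 bp limit, since the stretch within reach of both ends shrinks as the gap grows. The rise from the narrowest gaps to 301 to 400 bp is not set in that way, and each replicate gave it (31.8% to 55.4% and 28.8% to 56.3%). By chromosome the share was 50.2% on III, 43.1% on I, 31.3% on IV, 29.7% on II and 22.1% on V.

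Genes in head-to-head pairs had a peak of any kind within 500 bp in 1425 of 3512 cases (40.6%), against 17.5% of all 17242 autosomal coding genes and 11.6% of the 13730 in no such pair. A gene in a pair can also be reached by a summit placed for its neighbour, which by itself raises its share. The 624 divergent peaks lay within 500 bp of 1241 genes (7.2% of all autosomal coding genes), or 41.1% of the 3022 autosomal genes with any peak. From a peak list it cannot be told which gene of a pair, or whether both, the protein acts on.

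Genes of basic cell machinery lay at many of these promoters. Among 769 autosomal genes on 14 lists of cell machinery, 244 (31.7%) lay at a divergent peak, against 7.2% of all 17242 autosomal coding genes. A peak of any kind lay at 41.0% of the chromatin list to 86.25% of the cytosolic ribosomal protein list, the extremes of the 14. Over all autosomal coding genes it was 17.5%. Frequent peaks at machinery genes were thus not particular to divergent promoters. Gene order differs as well: 43.0% of the machinery genes are in a head-to-head pair, against 20.4% of all autosomal coding genes. Within pairs, 241 of 331 machinery genes (72.8%) lay at a divergent peak, against 34.8% of all genes in pairs. Of the 624 members, 219 (35.1%; 35.0% and 35.4% in the replicates) had such a gene as a nearest gene, against 11.6% of one-direction peaks, which offer a single nearest gene. In 194 members this was the case for 1 gene and in 25 for both. The median signal percentile was 67.9 for members with none, 78.8 with 1 and 86.5 with both. One-direction peaks showed a like split, 54.8 without and 71.6 with a machinery gene.

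**Figure D3:**
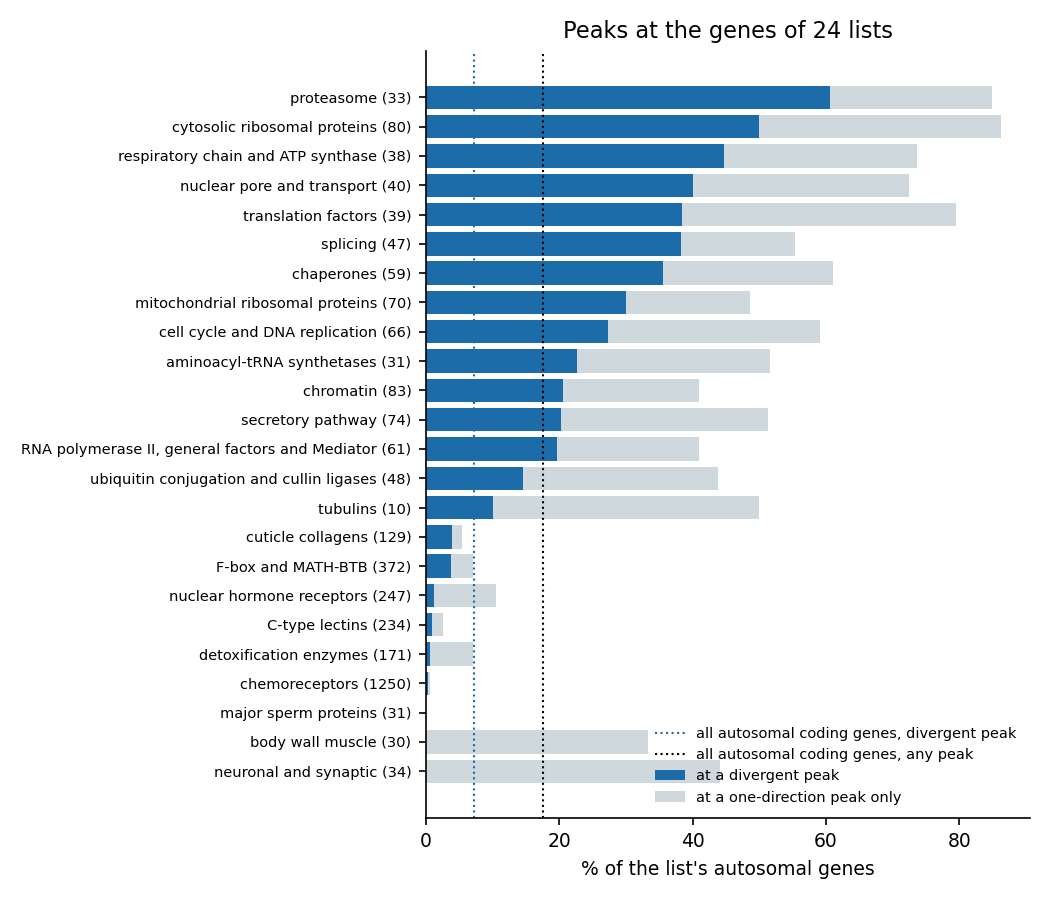
Percentage of the autosomal genes of 24 lists (number of genes in brackets) that lay at a divergent peak (blue) or at a one-direction peak only (grey). Dotted lines give the share of all autosomal coding genes at a divergent peak (blue, 7.2%) and at any peak (black, 17.5%). The 14 machinery lists and the tubulins reach from 10% to 60.6% at divergent peaks and the other 9 lists from 0 to 3.88%.

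The proteasome and the cytosolic ribosomal proteins had the highest shares of the 24 lists, 60.6% and 50%. Of 80 autosomal genes for cytosolic ribosomal proteins, 40 lay at a divergent peak, which is 40 of the 48 that are in a head-to-head pair, and 29 more lay at one-direction peaks. The median percentile of their divergent peaks was 92.2. Of 33 proteasome genes, 20 lay at a divergent peak, again nearly all of the 21 in a pair, and the highest after rpn-3 were rpn-9 (rank 294) and rpt-2 (rank 344), for a lid subunit and an ATPase of the base. Of 39 translation factor genes 15 did so, with eef-1G (rank 78) and eef-2 (rank 82) after eef-1A.1. Mitochondrial ribosomal proteins had 21 of 70, led by mrps-7 (rank 175), and aminoacyl-tRNA synthetases 7 of 31, led by nars-1 (rank 1108). The synthetases' divergent peaks had a median percentile of 42.9, and those of the other 13 machinery lists had medians from 63.8 to 92.2.

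The lists of energy supply, folding, transport and ubiquitin ranged from 14.6% to 44.7%. The respiratory chain and ATP synthase list had 17 of 38 genes at divergent peaks, with atp-1 (rank 80), for the catalytic head of ATP synthase, and atp-3 (rank 169) after cox-6B. Chaperones had 21 of 59, with hsp-90 (rank 51) after hsp-110 and cct-1. Nuclear pore and transport genes had 16 of 40, led by imb-1 (rank 67), which encodes importin beta, followed by the nucleoporin genes npp-14 (rank 233) and npp-3 (rank 255). The secretory pathway had 15 of 74, led by rab-18 (rank 77), vps-51 (rank 171) and vps-2 (rank 361). The ubiquitin list had 7 of 48, led by ubc-6 (rank 1124), uba-2 (rank 1366) and ubc-12 (rank 1953).

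The 4 lists of nuclear processes ranged from 19.7% to 38.3%. Splicing genes had 18 of 47 at divergent peaks, led by prp-40 (rank 110) and the SR protein gene rsp-3 (rank 322). Cell cycle and replication genes had 18 of 66, with lin-35 (rank 171), the worm's retinoblastoma gene, and cdc-6 (rank 187), for a replication licensing factor, after rfc-4. Chromatin genes had 17 of 83, with lin-54 (rank 56), for the DNA-binding subunit of the DREAM repressor, and lin-53 (rank 109), for a histone chaperone, after set-16. The partner of lin-54 is rpl-12 and that of lin-35 is vps-51. RNA polymerase II, general factors and Mediator had 12 of 61, led by rpb-3 (rank 595), mdt-18 (rank 664) and taf-11.3 (rank 693).

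The lists of differentiated cells and of large worm gene families had from 0 to 3.88% of their genes at divergent peaks, against 7.2% of all autosomal coding genes. None of 34 neuronal and synaptic genes lay at a divergent peak, and none of them is in a head-to-head pair, while 15 lay at one-direction peaks. None of 30 body wall muscle genes did, with 2 in a pair and 10 at one-direction peaks, so for both lists gene order leaves little room for a divergent peak. A peak of any kind lay at 44.1% of the neuronal and 33.3% of the muscle genes, against 17.5% of all autosomal coding genes. Of the major sperm protein genes, 0 of 31 lay at a divergent peak with 12 in a pair, and none had a peak of any kind. In families with similar copies a missing peak is uncertain, because the treatment of reads with several matching places is not stated. Among families that do occur in pairs, the genes in pairs that lay at a divergent peak were: chemoreceptors 4 of 125, C-type lectins 2 of 54, detoxification enzymes 1 of 27, nuclear hormone receptors 3 of 19, F-box and MATH-BTB genes 14 of 87 and cuticle collagens 5 of 23. For each of these 6 families the share lay below the 34.8% of all genes in pairs. The highest peaks of 3 of these families lay beside a machinery gene. The highest nuclear hormone receptor peak was nhr-47/dnj-19 (rank 215), next to a DnaJ chaperone gene. The highest chemoreceptor peak was sri-5/rsr-1 (rank 337), next to a splicing gene, and the highest collagen peak was col-38/rpl-5 (rank 142), where col-38 lay 436 bp from the summit.

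In a few promoters both genes were on the same list. Sharing a list does not mean sharing a task. Pairs of 1 family outside these lists, such as the histone genes his-67/his-68, are not counted here. Both were ribosomal protein genes in rps-14/rpl-36 (chromosome III, signal 385.1, rank 272; ranks 199 and 466 in replicates 1 and 2). The same held for rps-10/rpl-24.1 (rank 464; 655 and 372) and rpl-39/rps-30 (rank 770; 705 and 830), so a gene of the small and one of the large subunit shared a promoter in all 3. The pair snr-3/rsp-5, for a core spliceosome protein and an SR protein, ranked 534, and orc-5/cyb-1, for an origin recognition subunit and a B-type cyclin, ranked 1348. The small heat shock genes hsp-16.2/hsp-16.41 ranked 2256, and the F-box pairs fbxa-67/fbxa-11 and fbxa-76/fbxa-77 ranked 3529 and 3564. The collagen pair col-117/col-3 ranked 5065 and had no match in replicate 2. These last 4 belong to families with similar copies, and their values are uncertain, because the treatment of reads with several matching places is not stated.

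Where annotated 5′ ends are splice acceptors, the summit lay farther away than from ends that are neither acceptors nor start codons. This was looked for after the sequences had been seen. At the members, 311 of 1248 nearest 5′ ends (24.9%) came directly after the bases TTTCAG in the gene's direction, against 21.5% at one-direction peaks and 11.6% of all distinct autosomal coding 5′ ends. These ends were a median of 231 bp from the summit (quartiles 155.5 and 305.5). Ends with neither these bases nor a start codon at the annotated 5′ end were 161.5 bp away (quartiles 81.8 and 266). At one-direction peaks the medians were 222 and 153 bp. In replicate 1 alone they were 222 and 157 bp at divergent peaks, and in replicate 2 alone 219 and 170 bp. Ends at a start codon, with or without TTTCAG before them, were a median of 194.5 bp away at members. At one-direction peaks they were 230 bp away, so there the longer distance was not particular to ends after TTTCAG. In 239 members exactly 1 of the nearest ends followed TTTCAG, and it was the farther end in 163 of them (150 of 231 in replicate 1, with 2 ties, and 148 in replicate 2, with 2 ties). In 36 members both ends followed TTTCAG. The bases alone do not show that a message is trans-spliced, and ends after other acceptor sequences were counted with the rest.

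**Figure D4:**
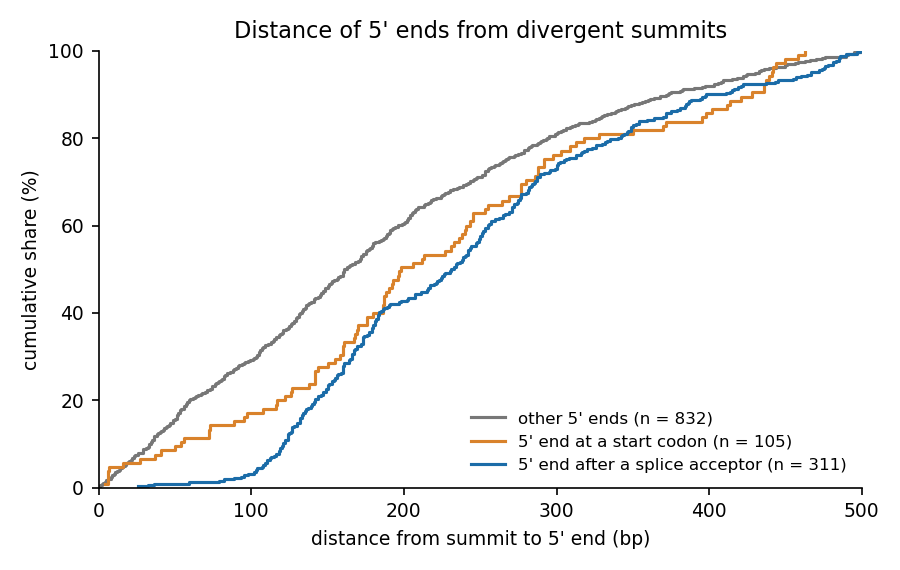
Cumulative share in percent (y axis) of the 1248 nearest 5′ ends at divergent peaks by their distance from the summit in bp (x axis), for ends directly after TTTCAG (blue), other ends at a start codon (orange) and all remaining ends (grey). The blue line starts later than the grey one, with medians of 231 and 161.5 bp.

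Ribosomal protein genes carried this arrangement. Of their 40 nearest 5′ ends at members, 25 followed TTTCAG and 0 were annotated to begin at the start codon. In 34 members a ribosomal protein gene had a partner off that list, and its end was the farther in 23, at a median of 300.5 bp against 184.5 bp for the partner. An annotated end at a start codon, which leaves the true start unknown, was found for 10.7% of the ends at members. The share was much the same at one-direction peaks, 10.9%, and was 30.9% over all autosomal coding 5′ ends.

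The summits lay on a short G+C-rich stretch between A+T-rich flanks. The median G+C content of the windows reaching 50 bp to either side of the summit was 43.6% (quartiles 38.6 and 48.5), the same median as at one-direction peaks. It was 36.6% in windows of the same length centred 300 bp to either side and 33.7% over 25197 autosomal coding promoters. In bins along the promoter, members fell from 48.6% at the summit to 29.9% at 100 bp on the left and 29.0% on the right. One-direction peaks fell from 47.6% to 34.3% on either side, so the trough was deeper at divergent promoters. Left and right follow the chromosome and not the genes.

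**Figure D5:**
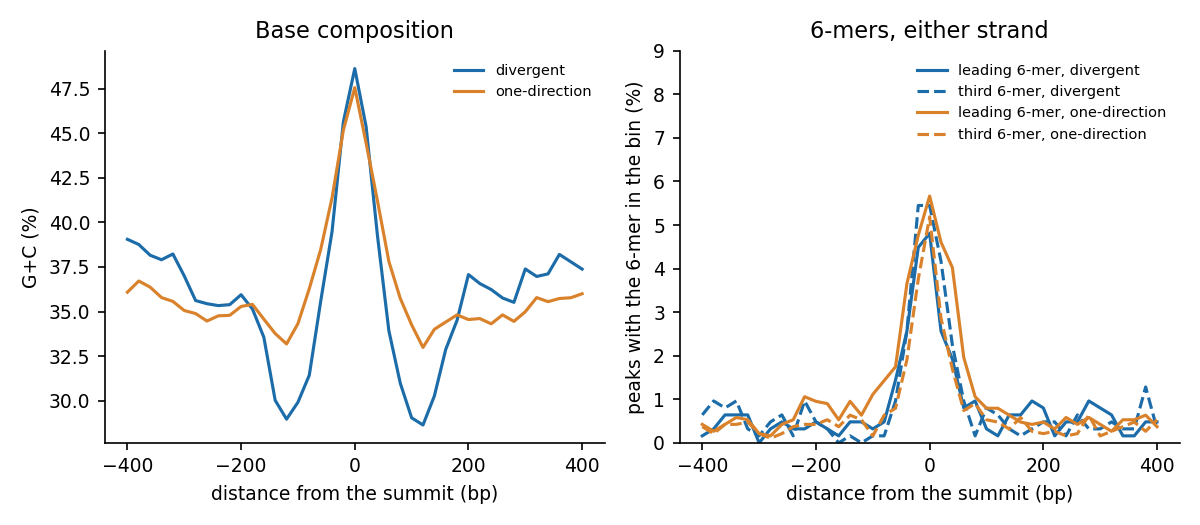
Left, mean G+C content in percent by distance from the summit in bp for divergent (blue) and one-direction peaks (orange); the axis does not start at 0. Right, percentage of peaks with the leading (solid) or the third (dashed) of the 10 G+C-rich 6-mers in each bin. All lines peak at the summit, and blue G+C reaches 29.9% at 100 bp on the left where orange stands at 34.3%.

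The 10 6-mers marked in the printed sequences were the ones with the highest ratio of summit windows to flanks at one-direction peaks, which hold no member. In order they were ACGCAG, then ACGCGC, then GAGCGC, then AGCGCG, then GCGCGC, then GACGCA, then CGCGCG, then CGTCTC, then CGCTCC and lastly AGACGC, each searched on both strands, and many of them overlap. Any of them occurred within 50 bp of the summit in 357 of 624 members (57.2%, Wilson interval 53.3 to 61), in 13.1% of the members' flanks and in 13.5% of all autosomal coding promoters. In windows at the middle of the gap the share was 35.5% for the 561 members with the summit between the genes and 11.8% for the 789 head-to-head pairs with no region. With the peaks of each replicate alone the members gave 57.7% and 55.4%. So the 6-mers chosen on one class of promoters were also frequent at the summits of the other, although many members held none of them in that window. Matches are a description of letters and not of binding sites.

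The shares of single 6-mers were not alike in divergent and one-direction promoters. The leading 6-mer ACGCAG stood in 14.4% of members (Wilson interval 11.9 to 17.4) and 19.6% of one-direction peaks (17.9 to 21.4), though its choice on the latter favours them. AGACGC stood in 10.7% and 17.6%, and CGTCTC in 12.3% and 21.4%. The order was the other way for GAGCGC (18.3% and 14%) and AGCGCG (15.4% and 11%). It was also the other way for GTGCGC (18.4% and 10.3%), though its ranking on the members themselves favours them. Beside a machinery gene the classes were close for GAGCGC (20.1% of members and 19.2% of one-direction peaks) and AGCGCG (16.9% and 17.4%). With no machinery gene the shares were 17.3% and 13.3% for GAGCGC, and 14.6% and 10.1% for AGCGCG. Letters of known promoter elements were searched as well, picked with earlier results of these data known. The 7-mer CTGCGTC was searched as a motif of HOT (high-occupancy target) regions, where peaks of many factors coincide. Whether the members lie in such regions was not tested. CTGCGTC contains the reverse complements of ACGCAG and GACGCA, so it is not independent of the choice on one-direction peaks. It stood in 7.21% of members (5.43 to 9.51) and 15% of one-direction peaks (13.4 to 16.7). GAGAGA stood in 15.2% (12.6 to 18.3) and 28.9% (26.9 to 30.9). For both, the share was lower at divergent peaks in each of the 4 groups by signal and in each replicate alone (CTGCGTC 6.77% and 14.4%, then 5.82% and 13.2%; GAGAGA 14.2% and 27.4%, then 15.5% and 27.8%). CTGCGTC stood in 1.94% and GAGAGA in 8.68% of all autosomal coding promoters. For GAGAGA the difference ran beside gene content, since members with a machinery gene had 9.13% and those without 18.5%, where one-direction peaks had 16.0% and 30.5%. On both sides of that split the divergent peaks had the lower share.

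Letters of other known promoter elements differed in both directions from the flanks. TATAAA, the core of the TATA box, stood in 5.61% of members and 11.1% of their flanks, and TGATAA, bound by GATA factors, in 3.37% and 9.94%. One-direction peaks and their flanks gave much the same, 5.35% and 11.9% for TATAAA and 4.92% and 9.90% for TGATAA. The E-box CACGTG stood in 1.92% of members and 4.61% of one-direction peaks, with 1.36% in the members' flanks. The GC box GGGCGG stood in 6.09% of members (4.47 to 8.25), 1.28% of their flanks (0.791 to 2.07), 5.19% of one-direction peaks and 2.64% of all autosomal coding promoters. TTCCCGC, an E2F-like sequence, stood in 2.40% of members, 1.12% of their flanks and 2.22% of one-direction peaks. Runs of 6 T stood in 34.9% of members and 34.4% of their flanks, against 28.5% of one-direction peaks and 40.5% of theirs.

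The limit of 500 bp cut through a continuous range. The farther 5′ end lay 401 to 500 bp from the summit in 106 members, and 73 further peaks had it at 501 to 600 bp with the nearer within 500 bp. Just inside were nap-1/praf-3 (500 bp, rank 694) and T15B7.15/hpo-8 (500 bp, rank 2910). Just outside were simr-1/C06A5.3 (504 bp, rank 180) and C02F4.5/cal-4 (504 bp, rank 5447).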

How the data were processed

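ChIP-seq peaks of eGFP-C34F6.9 in 2 biological replicates of whole L2 larvae were read from the deposited narrowPeak lists in ce11. The authors' optimal list, thresholded by the irreproducible discovery rate (IDR), the pooled list and the list of each replicate were used, per the deposited listing of files. The deposited signal is relative to a control library and served only to rank the peaks of a list. The deposited −log10 q-values were 4.07 for every optimal peak and ranked nothing. The optimal list was exactly the 5692 pooled regions with the highest signal. Neither the labels nor the file headers name an aligner or peak caller, or say how reads that match several places were treated. The control library was not analysed here and the ce10 lists were not used.

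The summit was the start of the peak plus the deposited offset. Genes and transcript 5′ ends came from Ensembl release 115 on WBcel235, the same assembly as ce11, and sequence from its RefSeq copy. Replicates alone were represented by their 5692 highest-signal peaks. Shares carry 95% Wilson intervals, which cover counting error only. The rule, the gene lists, chosen by gene name, and the 8 promoter elements searched were chosen with earlier results of these data known. The named genes were the nearest genes at the 12 highest members, the 3 highest genes of each list, pairs within 1 list, the members nearest the limit and the printed sequences, of which 1 is not reported here. The TTTCAG count, the split of the match by signal and the splits by machinery gene were added after results were seen. Alternatives were another distance limit, the highest part of the list, a single 5′ end per gene, each replicate alone, other match distances, pair gaps and windows. The classification was tested on simulated positions with known classes. The work was done in Python 3.11.15 with pandas 2.3.3, numpy 2.4.6, matplotlib 3.10.9 and scipy 1.17.1.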

Additional observations from a re-analysis of the deposited data

How the results depend on the processing

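With a limit of 250 bp in place of 500 bp there were 282 divergent peaks, with a divergent share of promoter peaks of 15.3%, 87.2% between the genes, a median gap of 248 bp, a match in both replicates of 87.9% and ACGCAG in 12.8%. With 1000 bp the share was 29.6%, 87.6% lay between, the gap was 479 bp and the match 87.1%. In the highest 2846 peaks the share was 30.1%, 92.5% lay between, the match was 99.4%, the median percentile within that list 62.3, and 26.1% of head-to-head pairs had a peak. With the outermost 5′ end of each gene the share was 26.4%, 88.7% lay between, the match was 89.9% and 35.0% of pairs had a peak. The match was 83.0% within 50 bp, 91.2% within 200 bp and 96.5% with the full lists. Pairs with a peak were 46.7% for gaps up to 500 bp and 24.1% up to 2000 bp. ACGCAG stood in 8.97% of windows of 25 bp and 17.5% of 100 bp to either side. With 1 replicate left out, the count was 619 to 620, the divergent share 24.5 to 25.3%, the share between 89.2 to 89.7%, the gap 367.5 to 378 bp, the match 90 to 90.3%, the percentile 68.4 to 73.4, pairs with a peak 34 to 34.2% and ACGCAG 11.8 to 14%. No paired analysis was possible because there is 1 group. Most of these settings change which peaks or windows are counted, and no read counts were at hand to set limits of depth.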

Other observations

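At 9 gene pairs more than 1 summit met the rule, so the 624 members lie at 614 pairs. In 8 of them the summits were 200 to 318 bp apart, and at most 206 bp in all of these but supr-1/dnj-28. Whether such summits are separate sites was not tested. The pair C47E8.4/hsp-90 had 3 summits on chromosome V, at ranks 51, 2636 and 5329, one of them assigned by another annotated 5′ end. The pair fib-1/mut-15, which holds the gene of the snoRNA-guided methylase fibrillarin, had summits 202 bp apart with signals of 321.6 and 104.3.

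A 5′ end of a non-coding gene lay within 500 bp of 80 members (12.8%), against 14.9% of one-direction peaks. These were mostly genes annotated as ncRNA (64 members), with piRNA genes at 10 members and snoRNA genes at 7. At 14 members 3 coding genes lay within 500 bp. The highest member with its summit outside the gap was rab-18/kbp-4 on chromosome III, with a signal of 567.3, rank 47 in replicate 1 and rank 167 in replicate 2.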
